A study of Mus musculus with 12 samples.

Results

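The miR-92a, miR-92b, miR-25, miR-363 and miR-32 entries of a small RNA count table from mouse endoderm and pancreatic progenitors were examined, 17 of the 1053 entries in the table. They were chosen by name, as every mature arm (11 entries) and every precursor (6 entries) of these miRNAs. The table holds 12 libraries, 3 for each of 4 embryonic days. The E8.5 libraries were made from Foxa2-CreER labelled, tdTomato-positive cells sorted from whole embryos after tamoxifen was given to the dam, and serve as the endoderm group. The E9.5, E10.5 and E11.5 libraries were made from Pdx1-Cre labelled, tdTomato-positive cells sorted from the trunk region, and serve as the pancreatic progenitor groups. Embryonic day therefore changes together with the Cre driver and the dissected region between E8.5 and the other groups, and these cannot be told apart. The labels give no mir-302 genotype, although the methods describe fathers that carried a GFP allele at mir-302 on 1 chromosome, so the genotype of each embryo at that locus is unknown here. Pdx1-Cre can mark any cell that descends from a Pdx1-expressing cell, including cells outside the pancreas such as duodenum.

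miRNAs are cut from hairpin precursors, and each hairpin can give a 5p and a 3p arm. One arm, the guide strand, is usually loaded into Argonaute and pairs with target mRNAs through its seed, while the other, the passenger strand, is usually degraded. miR-92a comes from a pair of paralogous hairpins: mir-92a-1 in the mir-17-92a cluster, a primary transcript known for promoting proliferation and restraining cell death, and mir-92a-2 in the related mir-106a-363 cluster on the X chromosome, which also holds mir-363. miR-25 comes from a further related cluster, mir-106b-25, while mir-92b and mir-32 lie apart from these.

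The guide strands are printed because they share 1 seed, which is how these miRNAs can pair with the same target sites. Bases 2 to 8, the seed, are in capitals and the sequences, written 5′ to 3′, are from RefSeq (GRCm38.p6). RefSeq held 10 of the 11 mature arms.
mmu-miR-92a-3p: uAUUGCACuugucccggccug
miR-92b-3p: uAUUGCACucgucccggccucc
mmu-miR-25-3p: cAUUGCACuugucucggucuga
miR-363-3p: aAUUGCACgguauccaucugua
miR-32-5p: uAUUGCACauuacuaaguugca
Counted from the 5′ end over the 21 positions of miR-92a-3p, miR-92b-3p had the same base at 19 positions, miR-25-3p at 18, miR-32-5p at 11 and miR-363-3p at 10. miR-92a-3p is the same sequence in both mir-92a hairpins, so its counts cannot be assigned to a locus. The passenger strands can be assigned, and are printed with bases 2 to 8 in capitals to show where they differ.
miR-92a-1-5p: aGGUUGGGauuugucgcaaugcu
mmu-miR-92a-2-5p: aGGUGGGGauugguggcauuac
miR-25-5p: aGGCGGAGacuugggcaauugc
miR-92b-5p: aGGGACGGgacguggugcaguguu
The 5p arms of mir-92a-1 and mir-92a-2 had the same base at 17 of 22 positions. The longest run that both mir-92a hairpins share is 22 bases, the 3p arm with 1 flanking base, so the 2 precursor entries can be told apart only by reads that reach beyond it. How the authors' counting divided reads between the precursors was not given in the sources used here.

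On GRCm38.p6, Mir92-1 lies at chr14:115044427-115044506 on the plus strand, in an exon of the long non-coding RNA gene Mir17hg. Mir92-2 lies at chrX:52741838-52741928 on the minus strand, 70 bases from Mir363 at chrX:52741693-52741767, and neither overlaps another annotated gene. Mir25 lies at chr5:138165321-138165404 on the minus strand and overlaps an annotated exon of Mcm7, a gene of the replicative helicase. Mir92b lies at chr3:89227116-89227198 on the minus strand and overlaps no other gene. Mir32 lies at chr4:56895229-56895298 on the minus strand, in an intron of Tmem245.

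Total counts ranged from 386094 to 594224 at E8.5, from 53996 to 80075 at E9.5, from 133435 to 267978 at E10.5 and from 417743 to 1103383 at E11.5, so the E9.5 libraries were the shallowest. CPM denotes counts scaled to a common library size by total counts and TMM factors. It is not per length and measures abundance relative to the other small RNAs. In the E9.5 libraries 3 counts were worth 32.01 to 75.8 CPM. In these bulk samples, fewer cells of a type and less RNA per cell cannot be told apart. The labelled tissue was checked against miRNA lists. The pancreatic and endocrine list (2 of 2 markers in the table) summed to 22920 to 27415 CPM at E8.5 and 33853 to 139130 CPM in the Pdx1-Cre libraries. The hepatic list, which is 1 miRNA, rose from 461 to 591 CPM at E8.5 to between 38757 and 130820 CPM, and the epithelial list (5 of 5) from 9003 to 11027 CPM to between 16465 and 39004 CPM. The pluripotent or early embryonic list (6 of 6) was at 36140 to 63689 CPM at E8.5 and at 376 to 10595 CPM afterwards, and the endothelial list (2 of 2) at 1821 to 2274 CPM and then 32.5 to 430 CPM. The erythroid (3 of 5, 459 to 1307 against 48.8 to 1315 CPM), leukocyte (2 of 4, 0 to 59.1 against 0 to 2655 CPM), neural (3 of 3, 46.5 to 506 against 0 to 362.8 CPM), mesenchymal (5 of 5, 6697 to 13131 against 1408 to 11395 CPM) and muscle (3 of 3, 6270 to 26465 against 266 to 26850 CPM) lists overlapped between E8.5 and the Pdx1-Cre libraries. Markers at 0 in every library of a stage were miR-142a-5p at E10.5 and E11.5, miR-9-3p at E9.5 and E11.5, miR-199a-5p at E8.5 and miR-133a-3p at E10.5 and E11.5. These lists move with the same change of stage as the values that follow, and their part in them was not tested.

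mmu-miR-92a-3p, the guide strand of both mir-92a loci, was the most abundant of 633 mature arms at E8.5, where it took 25.002% ± 1.70 (SD, n = 3) of all counts. Its level was 206514, 259266 and 222562 CPM in the E8.5 libraries. It was 78920, 65541 and 67402 CPM in the E9.5 libraries, 65531, 80169 and 81150 CPM in the E10.5 libraries, and 55795, 98055 and 90809 CPM in the E11.5 libraries. The 3 E8.5 libraries were all above the 9 Pdx1-Cre libraries, which overlapped between stages. As a share of counts it was 6.72% ± 1.55, 7.35% ± 1.16 and 8.17% ± 2.04 (SD, n = 3 each) in the 3 later stages, and it still ranked first, second and first by mean CPM. At E9.5 it fell by 1.70 on the log2 scale (SE 0.19, edgeR quasi-likelihood adjusted p = 1.62e-06) and at E11.5 the log2 fold change against E8.5 was -1.50 (SE 0.19, edgeR adjusted p = 4.52e-06).

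**Figure D1:**
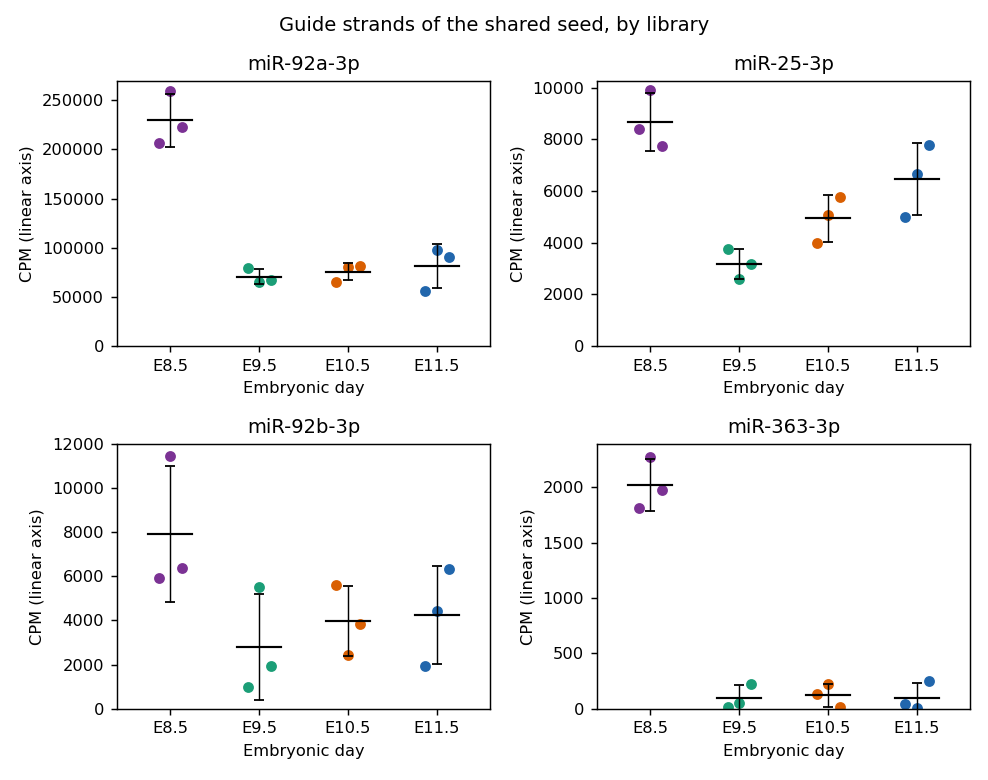
Level of 4 guide strands (CPM, linear axes from 0) in each of the 12 libraries by embryonic day. Each point is a library, the long line is the mean of 3 libraries and the error bar is the SD. miR-92a-3p and miR-363-3p lay highest in the 3 E8.5 libraries, while miR-25-3p at E11.5 (6470 CPM) had a higher mean than at E9.5 (3175 CPM).

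The scale of CPM mattered for these sizes. The median log2 fold change of all 571 tested entries was -0.84 at E9.5 against E8.5, and it moved to -0.21 with RLE factors and to -1.10 with library size alone. Relative to that median, miR-92a-3p was lower by 0.86, 0.85 and 0.80 on the log2 scale under TMM, RLE and library size alone. At E11.5 against E8.5 the median was -0.07, -0.21 and -0.23, and miR-92a-3p was lower than it by 1.43, 1.38 and 1.39.

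Across the 13 members that passed the filter on low counts, 3 were called at E9.5 against E8.5 (adjusted p under 0.05), all lower, where 5.6% of tested entries were called and 1.58% were called lower. In 11 of the 13 the E9.5 libraries lay wholly below the E8.5 libraries, against 27.5% of all entries. For E11.5 against E8.5, 4 of 13 were called, all lower, where 11.6% of entries were called and 6.3% called lower, and 8 of 13 lay wholly below, against 21.2%. The median log2 fold change of the 13 was -2.19 at E9.5 and -1.50 at E11.5, against -0.84 and -0.07 for all entries. Of the 13, 3 (miR-92a-2-5p, miR-363-5p and mir-363) passed the filter only through the E8.5 libraries and so had to differ, and these counts are therefore a description. The members not tested were miR-92a-1-5p, mir-32, miR-32-5p and miR-32-3p. Both comparisons share the E8.5 libraries. No member was called at E10.5 against E9.5 (4.38% of entries called) or at E11.5 against E10.5 (0.35%). In each, 1 of 13 had an unadjusted edgeR p under 0.05, and with DESeq2 2 members (mir-92a-2 and mir-25) were called at E10.5 against E9.5 and none at E11.5 against E10.5. Between neighbouring Pdx1-Cre stages the log2 fold changes of the abundant entries were small: 0.10 and 0.11 for miR-92a-3p (SE 0.18 each), 0.25 and 0.043 for mir-92a-1 (SE 0.48 each), and 0.64 and 0.39 for miR-25-3p (SE 0.41 each), at E10.5 against E9.5 and at E11.5 against E10.5. The signs for miR-92a-3p and mir-92a-1 turned under RLE factors. Over all 13 members the changes ran from -5.98 (mir-363) to 5.08 (mir-25) in the first and from -1.20 (miR-92a-2-5p) to 5.52 (miR-363-5p) in the second, the widest for entries with few counts.

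**Figure D2:**
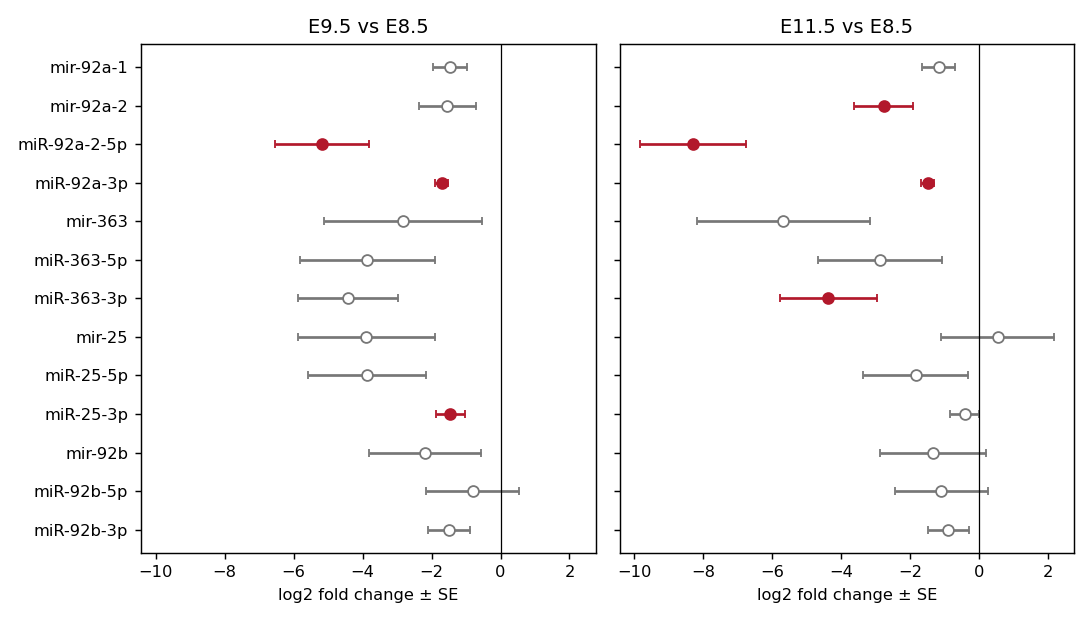
Fitted log2 fold change of the 13 tested members at E9.5 and at E11.5 against E8.5 (x axis), with the SE as the bar. Filled red points had an edgeR adjusted p under 0.05 and open grey points did not. At E11.5 the filled points are mir-92a-2, miR-92a-2-5p, miR-92a-3p and miR-363-3p.

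Both paralogous mir-92a precursor entries had lower means after E8.5. mir-92a-2, on the X chromosome, was read 1550, 1331 and 2236 times at E8.5, 61, 23 and 79 times at E9.5, 86, 29 and 142 times at E10.5, and 125, 779 and 305 times at E11.5. In CPM its mean went from 3112 ± 395 (SD, n = 3) at E8.5 to 1078 ± 879, 377 ± 158 and 455 ± 227. At E11.5 against E8.5 it fell by 2.78 on the log2 scale (SE 0.85, edgeR adjusted p = 0.0357), while its log2 fold change at E9.5 was -1.54 (SE 0.82, edgeR adjusted p = 0.271). The call at E11.5 was lost without any 1 of the E8.5 libraries, any 1 of the E11.5 libraries or E10.5 replicate 1 (adjusted p up to 0.162).

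mir-92a-1, in the mir-17-92a cluster, was read 3637, 3141 and 4662 times at E8.5, 193, 148 and 116 times at E9.5, 868, 350 and 708 times at E10.5, and 1027, 4329 and 2531 times at E11.5. Its mean level was 7035 ± 960 CPM at E8.5 and 2551 ± 848, 3024 ± 275 and 3119 ± 813 CPM at the later stages (SD, n = 3 each). All 9 Pdx1-Cre libraries lay below the E8.5 libraries, but the log2 fold changes, -1.47 at E9.5 (SE 0.49, edgeR adjusted p = 0.0862) and -1.18 at E11.5 (SE 0.49, edgeR adjusted p = 0.127), did not pass the threshold. With only the stages compared, with DESeq2, with limma voom, or with at least 10 counts in every library, the E11.5 change of mir-92a-1 did pass, at adjusted p between 0.00444 and 0.0241. The E9.5 change passed with library size alone (adjusted p = 0.0359) and with at least 10 counts in every library (adjusted p = 0.00730).

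The share of mir-92a-2 among the counts of both precursors needs no scaling between libraries. It was 29.9%, 29.8% and 32.4% at E8.5. It was 24.0%, 13.5% and 40.5% at E9.5, 9.01%, 7.65% and 16.7% at E10.5, and 10.9%, 15.3% and 10.8% at E11.5. The 6 libraries of E10.5 and E11.5 were all below E8.5, whereas the E9.5 libraries lay on both sides of it. The mean was 30.7% at E8.5 and 16.5% over the 9 Pdx1-Cre libraries, a difference that did not pass (exact two-sided permutation test, p = 0.0636, adjusted over 9 shares p = 0.115, smallest p possible 0.00909). E9.5 replicate 3 was the only Pdx1-Cre library above any E8.5 library. Its share, 79 of 195 counts, had a 95% Wilson interval of 33.9 to 47.5%. Such intervals cover counting error only, since the reads carried no molecular identifiers in the table used. Without this library the difference was -17.2 percentage points (exact permutation test, adjusted p = 0.0273). Without the E9.5 libraries the difference was -19.0 percentage points (exact permutation test, adjusted p = 0.0429). Both refits leave out the library that overlapped, so the groups separate and p takes its smallest possible value. These adjusted p-values are therefore not read as a difference.

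**Figure D3:**
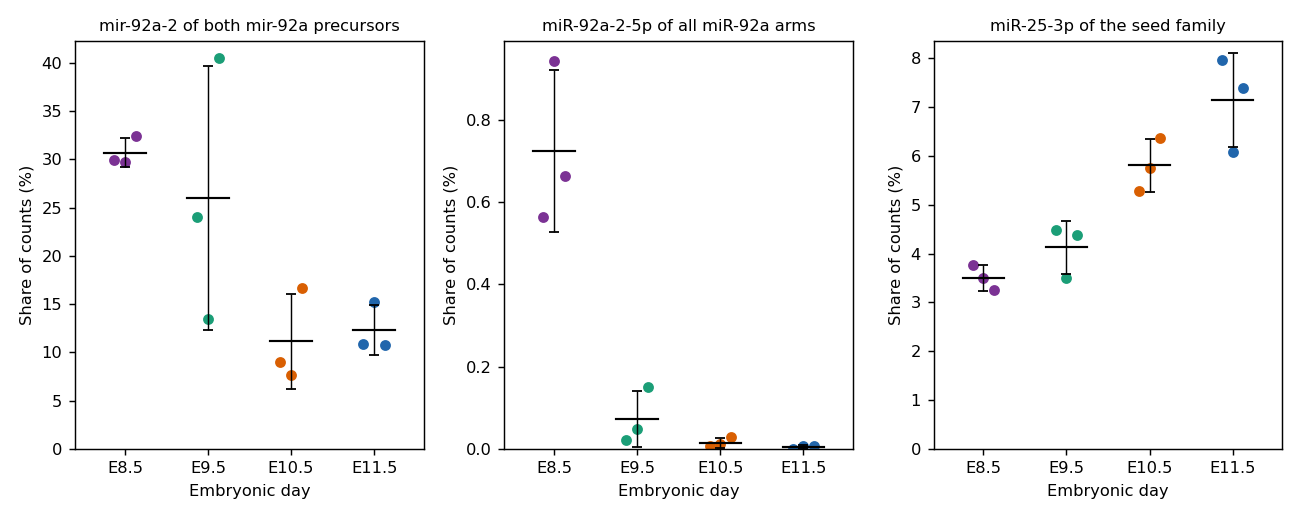
Share of counts (%, linear axes from 0) by library and embryonic day for mir-92a-2 among both mir-92a precursors, miR-92a-2-5p among all miR-92a arms and miR-25-3p among the 5 guide strands of the seed family. Points are libraries, lines are means of 3 and bars are SDs. The first 2 shares were lower at E10.5 and E11.5 than in each E8.5 library, and the miR-25-3p mean was 3.501% at E8.5 and 7.15% at E11.5.

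The passenger strand of mir-92a-2 differed most in fitted size among the called members. mmu-miR-92a-2-5p was read 681, 957 and 1030 times at E8.5, then 1, 3 and 4 times at E9.5, 1, 1 and 6 times at E10.5, and 0, 8 and 6 times at E11.5. Its mean was 1710 ± 678 CPM (SD, n = 3) at E8.5 and 4.85 ± 4.20 CPM at E11.5, which is near the level of 3 counts (2.75 to 6.85 CPM). The log2 fold change was -5.17 at E9.5 (SE 1.37, edgeR adjusted p = 0.0242) and -8.30 at E11.5 (SE 1.53, edgeR adjusted p = 6.53e-04). The E9.5 call was lost without any 1 of the E8.5 libraries or E9.5 replicate 2 (adjusted p up to 0.170), while E11.5 was called in 12 of 12 refits without 1 library. This arm passed the filter on low counts only through the E8.5 libraries, so in the filtered fit its change was bound to be negative and that count is a description. With no filter, where no entry is selected on its counts, it was called as well (edgeR adjusted p = 0.0265 at E9.5 and 9.33e-05 at E11.5).

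As a share of all miR-92a arm counts, this arm was lower in the Pdx1-Cre libraries. The guide counts pool both loci, so a lower locus and a lower arm relative to its own guide cannot be told apart. miR-92a-2-5p made up 0.565%, 0.944% and 0.663% of all miR-92a arm counts at E8.5, and between 0 and 0.150% in the Pdx1-Cre libraries. The means were 0.724% and 0.0311%, and the groups did not overlap (exact two-sided permutation test, p = 0.00909, adjusted p = 0.0273). That p is the smallest that 9 libraries against 3 can give. Without any 1 of the E8.5 libraries the share did not pass (exact permutation test, adjusted p 0.0818 to 0.109). miR-92a-1-5p, the passenger strand of the other locus, was read 28, 8 and 41 times at E8.5 and 0 times in all 9 Pdx1-Cre libraries. Its mean at E8.5, 42.7 CPM, was at least 9.70-fold higher than the floor of 3 counts per library at E11.5. Its share of miR-92a arm counts was 0.00789 to 0.0264% at E8.5. The 0 counts allowed shares of up to 0.0625 to 0.144% at E9.5 and 0.0184 to 0.0412% at E10.5 (95% Wilson upper limits), so a lower share was not detectable there at this depth. At E11.5 the limits were 0.0157, 0.00359 and 0.00509%. The planned test over all 9 libraries (0.0192% against 0, exact permutation test, adjusted p = 0.0273) takes those counts of 0 as shares of 0 and is not read as a difference.

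miR-363, whose hairpin neighbours mir-92a-2, was also highest at E8.5. The guide strand miR-363-3p was read 1050, 881 and 1369 times at E8.5, 1, 5 and 9 times at E9.5, 34, 26 and 3 times at E10.5, and 17, 4 and 207 times at E11.5. Its mean level was 2020 ± 236 CPM at E8.5 and 99.1 ± 113, 122 ± 106.1 and 97.2 ± 133 CPM after it (SD, n = 3 each). At E11.5 against E8.5 it fell by 4.37 on the log2 scale (SE 1.41, edgeR adjusted p = 0.0463), and the log2 fold change at E9.5 was -4.41 (SE 1.45, edgeR adjusted p = 0.0774). The E11.5 call was lost with RLE factors (adjusted p = 0.0582), without mir-6236 and mir-6240 (adjusted p = 0.0594), without any 1 of the E8.5 libraries, and without E11.5 replicate 1 or 2 (adjusted p up to 0.147). E11.5 replicate 3 had 249 CPM, the other two at most 38.8 CPM, and without it the log2 fold change was -6.64 (adjusted p = 0.0117). The E9.5 change passed when replicate 3 of E9.5 (adjusted p = 0.0296), of E10.5 (0.0390) or of E11.5 (0.0424) was left out, or replicate 2 of E11.5 (0.0372), and with DESeq2 (adjusted p = 0.0294) or no filter on low counts (adjusted p = 0.0265).

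The other miR-363 entries varied more between libraries. miR-363-5p was read 478, 284 and 184 times at E8.5 and at most 4 times in 8 of the 9 Pdx1-Cre libraries, but 204 times in E11.5 replicate 3, the library that also had 207 counts of miR-363-3p. Its log2 fold change at E11.5 was -2.88 (SE 1.81, edgeR adjusted p = 0.424), -8.62 without that library (adjusted p = 0.0400) and -5.86 with limma voom (adjusted p = 0.00472). The precursor mir-363 was read 155, 53 and 5 times at E8.5 and 0 to 5 times afterwards, with a log2 fold change of -5.68 at E11.5 (SE 2.50, edgeR adjusted p = 0.162) and -4.78 with limma voom (adjusted p = 0.0435). Both entries passed the filter only through the E8.5 libraries and so had to be lower, and these tests are given as a description. With no filter neither was called at E11.5 against E8.5. There miR-363-5p was at -2.85 (edgeR adjusted p = 0.344) and mir-363 at -5.66 (adjusted p = 0.267).

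mmu-miR-25-3p, the guide strand of the mir-106b-25 cluster, was lower at E9.5 and nearer to its E8.5 level at E11.5. The E8.5 libraries had 8384, 9890 and 7739 CPM and the E9.5 libraries 3759, 2582 and 3185.5 CPM. The E10.5 libraries had 3978, 5070 and 5779 CPM, and the E11.5 libraries 4994, 6645 and 7772 CPM. At E9.5 it fell by 1.45 on the log2 scale (SE 0.42, edgeR adjusted p = 0.0403), a call that was lost in 11 of 12 refits without 1 library, all but the one without E9.5 replicate 1 (adjusted p up to 0.238), and in 7 of 10 other alternatives (up to 0.329). The log2 fold change of E11.5 against E8.5 was -0.43 (SE 0.41, edgeR adjusted p = 0.695), or -0.96 with at least 10 counts in every library (adjusted p = 0.0298), and the stages overlapped. The E10.5 libraries were all above those of E9.5, with a log2 fold change of 0.64 (SE 0.41, edgeR adjusted p = 0.407).

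Among the counts of the 5 guide strands with this seed, miR-25-3p took 3.77%, 3.49% and 3.24% at E8.5, 4.49%, 3.503% and 4.38% at E9.5, 5.29%, 5.76% and 6.37% at E10.5, and 7.96%, 6.09% and 7.39% at E11.5. The E10.5 and E11.5 libraries were all above E8.5. The mean share was 3.501% at E8.5 and 5.69% over the Pdx1-Cre libraries (exact two-sided permutation test, p = 0.0182, adjusted p = 0.0409), but with 1 library left out the adjusted p stayed under the threshold in 2 of 12 cases. miR-363-3p went the other way, from 0.815% to 0.127% with no overlap (exact permutation test, adjusted p = 0.0273). miR-92a-3p made up 92.5% ± 0.849 of the family at E8.5 and 88.4% ± 1.82 at E11.5 (SD, n = 3 each). The sum over the seed family was 27.0% ± 1.91 of all counts at E8.5, then 7.33% ± 1.75, 8.24% ± 1.25 and 9.26% ± 2.32.

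miR-25-5p, the passenger strand of mir-25, was read 306, 519 and 403 times at E8.5, 1, 5 and 4 times at E9.5, 2, 43 and 135 times at E10.5, and 264, 1 and 68 times at E11.5. Within E11.5 it was 10.8% of miR-25 arm counts in replicate 1 (Wilson interval 9.60 to 12.1%) and 0.0138% in replicate 2 (0.00243 to 0.0780%), although replicate 2 had 7254 counts of miR-25-3p. The spread between libraries of a stage thus went beyond counting error. The mean share was 8.28% at E8.5 and 3.63% in the Pdx1-Cre libraries (exact permutation test, adjusted p = 0.177). The precursor mir-25 was read 81, 62 and 65 times at E8.5, 0, 2 and 0 times at E9.5, 2, 98 and 14 times at E10.5 and 69, 194 and 195 times at E11.5. Its log2 fold change was -3.89 at E9.5 against E8.5 (edgeR adjusted p = 0.264) and 5.08 at E10.5 against E9.5 (SE 2.06, edgeR adjusted p = 0.184).

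**Figure D4:**
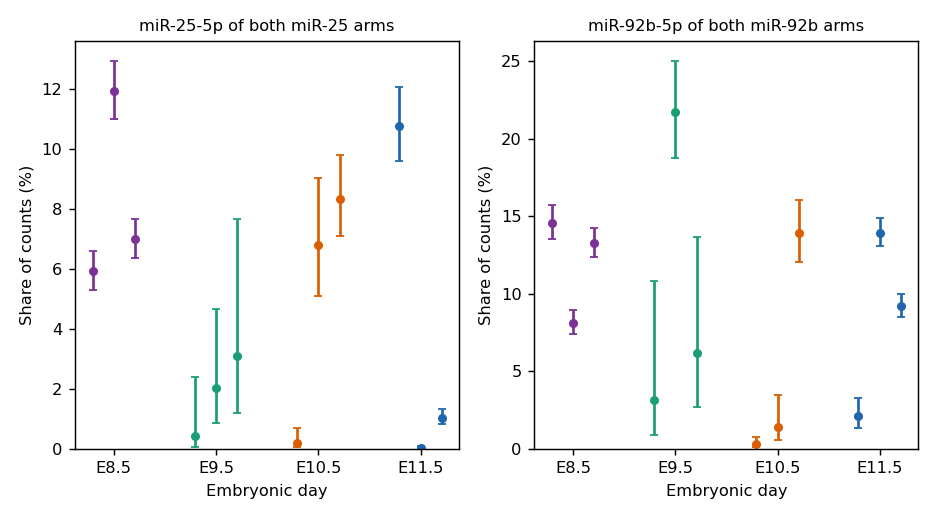
Share of the passenger strand (%, linear axes from 0) among both arms of miR-25 and of miR-92b, by library and embryonic day, with 95% Wilson intervals as bars. Libraries of 1 stage differ by more than their intervals, as for miR-25-5p at E11.5 (10.8%, 0.0138% and 1.04%).

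miR-92b, from a single hairpin outside these clusters, showed no call in any comparison with all libraries. The E8.5 libraries had 5900, 11450 and 6368 CPM of miR-92b-3p and the E9.5 libraries 993, 5527 and 1921 CPM. The E10.5 libraries had 5613, 2458 and 3840 CPM and the E11.5 libraries 1924, 4411 and 6346 CPM, so the E9.5 and E10.5 libraries all lay below E8.5, and E11.5 overlapped with it. The log2 fold change was -1.49 at E9.5 (SE 0.60, edgeR adjusted p = 0.187; -2.17 and 0.0312 without E9.5 replicate 2) and -0.91 at E11.5 (SE 0.60, edgeR adjusted p = 0.462). Its share of the seed family was 3.12% at E8.5 and 4.33% later (exact permutation test, adjusted p = 0.491). miR-92b-5p made up 8.12 to 14.6% of miR-92b arm counts at E8.5 and 0.338 to 21.8% in the Pdx1-Cre libraries (exact permutation test, adjusted p = 0.511). The precursor mir-92b had 53 to 356 counts at E8.5 and 2 to 176 counts afterwards.

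miR-32, processed from an intron of Tmem245, was near the limit of detection. miR-32-5p was read 0, 52 and 0 times at E8.5, so its level there rested on 1 library, and 0 to 8 times in the other libraries. miR-32-3p was read 0, 61 and 71 times at E8.5 and at most 1 time per library afterwards. The precursor mir-32 was read 20, 0 and 23 times at E8.5 and once in the 9 later libraries. miR-367-3p, of the mir-302 cluster, has the same seed (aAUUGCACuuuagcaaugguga) and is no member of the set by name. It was read 121, 119 and 68 times at E8.5, 0, 49 and 0 times at E9.5 and 0 times in the 6 later libraries, so that its E8.5 mean was at least 46.5-fold higher than the floor of 3 counts per library at E11.5.

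The miRNAs that share a primary transcript with a member gave 27 entries, of which 19 were tested. None was called at E9.5 against E8.5, where edgeR gave 5 of 19 an unadjusted p under 0.05. The 3 with the smallest adjusted p were miR-93-5p (log2 fold change -1.65, edgeR adjusted p = 0.122; -2.65 and 0.00359 without E9.5 replicate 2), miR-19b-3p (-5.78, adjusted p = 0.166) and miR-106b-3p (-3.37, adjusted p = 0.202). With at least 10 counts in every library, miR-93-5p was called at E9.5 against E8.5 (-1.65, edgeR adjusted p = 0.0452). Of the 19, 1 was called at E11.5 against E8.5. It was miR-20b-5p of the mir-106a-363 cluster, read 191, 102 and 277 times at E8.5 and 0 to 3 times in the other libraries, with a log2 fold change of -7.29 (SE 2.30, edgeR adjusted p = 0.0410). It passed the filter only through the E8.5 libraries and had to be lower, so this is a description. That call was lost in 8 of 12 refits without 1 library (adjusted p up to 0.150). These left out any 1 of E8.5 or E11.5, or E9.5 replicate 2 or 3. With no filter on low counts the call was lost as well (-7.26, edgeR adjusted p = 0.0992).

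miR-92a-3p and miR-19b-3p come from 2 clusters each and were left out of the locus counts that follow. At E11.5 against E8.5 miR-92a-3p was called lower, as given above, and miR-19b-3p was not called (-1.34, edgeR adjusted p = 0.807). Grouped by locus, with members and partners together, 4 of the 8 tested entries of the X-chromosome cluster were called lower by edgeR at E11.5 against E8.5. They were mir-92a-2, miR-92a-2-5p, miR-363-3p and miR-20b-5p. Of the 8, 4 passed the filter only with the E8.5 libraries and so had to be lower, among them miR-92a-2-5p and miR-20b-5p, so that 2 of the other 4 were called. With edgeR none of 10 tested entries assigned only to the mir-17-92a cluster (5 passing only with E8.5) was called there. Nor was any of 9 of the mir-106b-25 cluster (1 passing only with E8.5). Other settings were looked at only for members and for miR-20b-5p, miR-20a-3p and miR-17-3p, the 3 partners with the smallest adjusted p. Among the entries of these 2 clusters looked at, they called mir-92a-1 as given above and miR-25-3p with at least 10 counts in every library (adjusted p = 0.0298). They also called miR-25-5p with limma voom (adjusted p = 0.0225). The remaining partners were not looked at under other settings. The background of entries called lower was 6.3%, and the difference between clusters was not tested. The median log2 fold change was -3.63 for the X-chromosome cluster, -1.72 for mir-17-92a and -0.81 for mir-106b-25, and -2.54, -1.77 and -0.62 over the entries that passed without the E8.5 libraries. All 3 clusters had negative medians at E9.5 against E8.5, at -4.33, -2.99 and -3.37 in the same order over all their tested entries. Over the entries that passed without the E8.5 libraries they were -4.33, -1.31 and -2.66, against -0.84 for all 571 tested entries. In the later comparisons edgeR called none of these entries. DESeq2 was looked at there only for members and the partners named below. It called mir-92a-2 (-2.13, adjusted p = 0.0318) and mir-25 (4.68, adjusted p = 0.0479) at E10.5 against E9.5, and gave no adjusted p for mir-17, miR-20a-3p and mir-363. At E10.5 against E9.5 the partners with the smallest adjusted p were miR-106b-5p (3.26, edgeR adjusted p = 0.269), mir-17 (7.96, adjusted p = 0.288) and miR-20a-3p (8.04, adjusted p = 0.314), the last 2 fitted against a stage with no count. At E11.5 against E10.5 they were miR-20a-3p (edgeR adjusted p = 0.368), miR-19a-3p (5.51, adjusted p = 0.449) and mir-19b-1 (6.30, adjusted p = 0.503), where miR-20a-3p was read in 1 of 6 libraries.

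Over the 12 libraries, the entries whose log2 CPM was most like that of miR-92a-3p were mir-302d (Pearson r = 0.959), miR-20b-5p (0.899), mir-302c (0.880), miR-331-3p (0.848) and mir-218-1 (0.843). These values describe the same step between E8.5 and the other libraries, which all 12 points share. mir-302d had a mean of 273 CPM at E8.5 and at most 1.30 CPM in each later stage, whereas the mean of miR-92a-3p was 70621 CPM or more in each later stage.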

How the data were processed

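Small RNA libraries (NEXTflex kit, 3 per stage) were sequenced and the authors processed them with the COMPSRA pipeline: trimming of the adapter and 4 random bases, reads of 17 to 35 bases (36 in 2 libraries, per the file headers), STAR alignment to mm10 and read counting. The submitters' notes also name GRCm39. The deposited values are raw counts per entry, mature arms and precursors, not normalised. Fold changes were fitted here with edgeR 4.0.16 (R 4.3.3; quasi-likelihood, TMM factors, filterByExpr with a minimum count of 10 and a total of 15, stage as the factor, all 12 libraries), with Benjamini-Hochberg adjustment over 571 entries and a threshold of 0.05. DESeq2 1.42.0 and limma 3.58.1 voom were alternatives. The script was tested on simulated counts. Shares of counts, the 9 Pdx1-Cre against the 3 Foxa2-CreER libraries, were compared by exact two-sided permutation tests (SciPy 1.17.1), adjusted over 9 shares. These tests treat the 9 libraries of 3 stages as 1 group.

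Members were all entries with these names, partners the miRNAs of the same clusters with up to 3 named per comparison, and the 5 entries most like miR-92a-3p were named by Pearson r of log2(CPM + 1). The members and lists were chosen with earlier results of these data known. Nothing in the sources says whether the 3 libraries of a stage came from separate litters, so p-values measure the spread between these samples. Library names carry a number that is the same within a stage and differs between stages, and stage and that number cannot be told apart. Sequences and positions are RefSeq (GRCm38.p6) and overlaps GENCODE. Replicate numbers in the labels did not pair the libraries.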

Additional observations from a re-analysis of the deposited data

Results flagged for a closer look

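Among the 9 Pdx1-Cre libraries, 1 library stood far from the others in 3 of the shares by Dixon's criterion. The miR-92a-1-5p share was 0 in all 9 libraries and could not be examined. For normal values of 1 group, chance passes the criterion in about 1 of 20 groups. These libraries come from 3 stages, so that rate need not hold here. E9.5 replicate 3 had the highest mir-92a-2 share of mir-92a precursor counts, 40.5%, where the next library had 24.0%. It also had the highest miR-92a-2-5p share of miR-92a arm counts, 0.150%, from 4 counts, where the next had 0.0488%. E10.5 replicate 2 had the highest miR-32-5p share of the seed family, 0.0781%, from 8 counts, where the next had 0.0347%.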

How the results depend on the processing

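Of 569 values of members, partners and shares under alternatives other than leaving out 1 library, 512 kept their direction and their side of the threshold, 12 lost a call, 16 gained one and 29 changed sign. miR-92a-3p at E9.5 and E11.5 against E8.5 stayed called under every alternative that gave a value, including each library left out. So did miR-92a-2-5p at E11.5, which passed the filter only through its E8.5 counts, so that of these alternatives the fit with no filter is the one not bound to find it lower. Entries that an alternative filters out (low entries with at least 10 counts in every library, precursors with mature arms only) have no value there. The cause of the changes below was not tested. DESeq2 gave no adjusted p for 5 of the values, which are left out.

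Entries called at E9.5 against E8.5 numbered 32, and 50 with RLE factors, 79 with DESeq2 and 17 with limma voom. At E10.5 against E9.5 they numbered 25, and 50 with no filter, 68 with DESeq2, 1 with voom and 11 with only the stages compared. At E11.5 against E10.5 they numbered 2, and 5 with no filter, 1 with at least 10 counts in every library, 8 with DESeq2, 4 with only the stages compared, 1 with mature arms only and 1 without mir-6236 and mir-6240. At E11.5 against E8.5 they numbered 66, and 43 with at least 10 counts in every library, 147 with voom and 106 with only the stages compared. Leaving out 1 library gave 21 to 44, 7 to 42, 1 to 5 and 38 to 80 entries in these 4 comparisons.

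Changes of sign were all in the comparisons of neighbouring Pdx1-Cre stages, in which edgeR called no member (DESeq2 called mir-92a-2 and mir-25 at E10.5 against E9.5), and in the miR-32-5p share. At E10.5 against E9.5 (log2 fold changes), miR-92a-3p went from 0.10 to -0.40 with RLE factors, -0.28 with at least 10 counts in every library, -0.40 with DESeq2, -0.15 with only the stages compared and -0.31 without mir-6236 and mir-6240. mir-92a-1 went from 0.25 to -0.29, -0.14, -0.28, -0.00017 and -0.17 in that order. miR-92b-3p went from 0.49 to -0.034 with RLE factors and -0.035 with DESeq2. miR-363-3p went from 0.34 to -0.24 with RLE factors, -0.25 with DESeq2, -0.012 with voom and -0.23 without mir-6236 and mir-6240. At E11.5 against E10.5, miR-92a-3p went from 0.11 to -0.13 with RLE factors and -0.13 with DESeq2. mir-92a-1 went from 0.043 to -0.18 with RLE factors, -0.022 with at least 10 counts in every library, -0.18 with DESeq2 and -0.049 with only the stages compared. mir-25 went from -0.66 to 1.62 with voom, mir-363 from 3.12 to -0.21 with voom, mir-92b from -0.073 to 0.022 with library size alone, and miR-92b-3p from 0.089 to -0.098 with RLE factors and -0.098 with DESeq2.

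Leaving out 1 library changed the sign, or for miR-20a-3p took the value to 0, of these log2 fold changes at E10.5 against E9.5: miR-92a-3p (-0.13 to 0.28), mir-92a-1 (-0.19 to 0.53), miR-92b-5p (-4.35 to 1.33), miR-92b-3p (-0.099 to 1.23), miR-363-3p (-0.38 to 1.77) and miR-20a-3p (0 to 8.65). At E11.5 against E10.5 it did so for miR-92a-3p (-0.091 to 0.42), mir-92a-2 (-0.25 to 0.71), mir-92a-1 (-0.22 to 0.32), mir-25 (-1.30 to 2.66), miR-92b-3p (-0.23 to 0.54), miR-363-5p (-0.28 to 8.10), miR-25-5p (-2.83 to 0.092), miR-363-3p (-2.64 to 0.51), mir-92b (-1.03 to 0.37) and miR-20a-3p (-8.65 to 0).

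Share differences in percentage points, Pdx1-Cre minus Foxa2-CreER, ranged as follows with 1 library left out: mir-92a-2 from -17.2 to -13.1 (it passed without E9.5 replicate 3, and at -19.0 without the E9.5 libraries), miR-92a-2-5p from -0.772 to -0.583, miR-92a-1-5p from -0.0248 to -0.0156, miR-363-3p from -0.711 to -0.672, miR-25-3p from 1.91 to 2.46 and miR-32-5p from -0.00913 to 0.0146. The mir-92a-2 share passed only where E9.5 replicate 3, the library that overlapped E8.5, was left out. Without 1 of the 3 E8.5 libraries, 2 are left, the smallest p possible is larger, and no share passed.

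Same-numbered libraries did not deviate together (1 of 18 correlations over 0.1, range -0.148 to 0.113), so the labels share only a number. With the replicate block, 26, 22, 3 and 61 entries were called in the 4 comparisons, and 3 calls were lost: miR-25-3p at E9.5 against E8.5 (-1.45, edgeR adjusted p = 0.0737), and at E11.5 against E8.5 mir-92a-2 (-2.74, adjusted p = 0.0511) and miR-20b-5p (-7.82, adjusted p = 0.0501). It turned mir-25 to 1.02 and miR-92b-3p to -0.13 at E11.5 against E10.5.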
